A study of Mus musculus with 4 samples.

Results

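The abundant structural and nuclear noncoding RNAs described here are 10 genes of the 52630 in the table: Rn7sk, Rn7s1, Rn7s2, AC157822.1, Rpph1, Rmrp, Terc, Malat1, Neat1 and Gm26917. They were picked by symbol, as the noncoding genes with the highest transcript levels together with the RNAs of nuclear speckles, paraspeckles and related ribonucleoproteins, so their high level is how they were chosen and not a result. The description of abundance held for 8 of them only. By mean level, Rn7sk, Rn7s2, AC157822.1, Rpph1, Gm26917, Rn7s1 and Rmrp held ranks 1 to 7 among all genes and Malat1 held rank 17, whereas Neat1 held rank 1320 and Terc rank 1394. The levels came from AML12 cells, a non-tumour mouse hepatocyte line derived from mice with a human transgene for TGF-alpha. The shTopors group had 2 libraries from cells infected with lentivirus carrying a short hairpin RNA against Topors, which encodes a ubiquitin and SUMO E3 ligase. The shCtrl group had 2 libraries from cells infected with the control virus. Both groups received 200 µl of concentrated virus, were grown with 10% fetal bovine serum and 0.1 µM dexamethasone, and were collected on day 5. Strand-specific libraries were made from total RNA after removal of ribosomal RNA, and levels are given in TPM (transcript abundance scaled for transcript length and for the library total).

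These RNAs act without being translated. 7SK RNA holds the elongation kinase P-TEFb in an inactive particle with HEXIM proteins, and 7SL RNA is the scaffold of the signal recognition particle, which brings ribosomes making secreted proteins to the endoplasmic reticulum. Rpph1 and Rmrp are the RNA subunits of the related ribonucleases RNase P, which trims the leaders of tRNA precursors, and RNase MRP, which acts in ribosomal RNA maturation. Terc is the template RNA of telomerase. Malat1 is a long RNA of nuclear speckles, the compartments rich in splicing factors, and Neat1 is the scaffold on which paraspeckles form. RNase P also cuts the 3′ ends of the Malat1 and long Neat1 transcripts, which are then protected by a triple helix of U-rich and A-rich stretches. A hepatocyte makes large amounts of secreted protein, so its 7SL RNA serves a heavily used pathway.

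Of the 10 genes, 3 report the same RNA. The 7SL gene Rn7s2 lies at chr12:69361182-69361481 on the minus strand and is 300 bases long. Rn7s1, at chr12:69159295-69159594 on the plus strand, differed from it at 0 of 300 bases. AC157822.1 is annotated as a miRNA gene of 80 bases (Gm47299 in the annotation) at chr12:69361179-69361258 on the minus strand, inside the 3′ end of Rn7s2. The 77 bases that AC157822.1 and Rn7s2 share are bases 224 to 300 of 7SL. AC099934.2, a gene of 70 bases at chr12:69159437-69159506 on the plus strand, is not among the 10 genes and is a short entry inside Rn7s1. It covers bases 143 to 212 of 7SL, a stretch that AC157822.1 does not hold. Coordinates here and below are those of the mm10 annotation GENCODE M21.

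Malat1 and Neat1 had the largest differences of the 10 genes, and their 3′ ends are shown because they carry the same 3 short elements. The sequences are from the GENCODE M21 transcripts and are written 5′ to 3′. Malat1 (6983 bases) lies at chr19:5795690-5802672 and Neat1 (20771 bases) at chr19:5824708-5845478, both on the minus strand and 22035 bases apart. The stretches printed are bases 6582 to 6751 of Malat1, at chr19:5795922-5796091, and bases 20662 to 20771 of Neat1, at chr19:5824708-5824817. Capitals mark, in order, TTTCTTTT, TTTTGCTTTT and an A-rich tract that ends in AAAAAGCAAAA, with the letters of TTTTGCTTTT and AAAAAGCAAAA read from Neat1.
Malat1 3′ stretch: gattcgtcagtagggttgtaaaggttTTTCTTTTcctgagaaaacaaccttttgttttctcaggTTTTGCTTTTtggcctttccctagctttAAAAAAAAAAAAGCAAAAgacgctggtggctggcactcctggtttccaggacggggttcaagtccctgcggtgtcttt
Neat1 3′ stretch: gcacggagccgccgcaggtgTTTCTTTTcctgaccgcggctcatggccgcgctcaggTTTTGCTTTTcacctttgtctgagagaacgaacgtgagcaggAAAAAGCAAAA
Of 141767 annotated transcripts, TTTCTTTT occurred in 12.3% on their own strand and in 14.6% on the opposite strand. TTTTGCTTTT occurred in 1.08% and 1.12%, and AAAAAGCAAAA in 0.436% and 0.427%. All 3 in this order, each at most 60 bases from the next, occurred on the own strand of 2 transcripts, 1 each of Malat1 and Neat1. These 2 were bound to be found, since the elements were chosen as present in both. The opposite strand was not searched for the combination. The annotated Neat1 transcript ends with the tract, at base 20771, whereas 292 bases follow it in Malat1.

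The 5′ ends of the annotated Terc and Rn7sk transcripts are shown for the short elements by which these RNAs are known. These are the telomere template and the GATC copies, of which some pair in the hairpin that HEXIM binds. Where the mature RNAs start was not tested. For Terc, bases 1 to 100 at chr3:96414760-96414859 on the minus strand are printed with CCTAACCC in capitals. For Rn7sk, bases 1 to 80 at chr9:78175554-78175633 on the minus strand are printed with 3 copies of GATC in capitals.
Terc: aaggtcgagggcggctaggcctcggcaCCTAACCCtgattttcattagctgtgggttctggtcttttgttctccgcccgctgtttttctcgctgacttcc
Rn7sk: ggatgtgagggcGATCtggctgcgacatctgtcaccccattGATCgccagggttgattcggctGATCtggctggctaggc
Among 24532 transcripts of 300 to 550 bases, 0.399% held CCTAACCC on their own strand and 0.22% on the opposite strand, and 0.261% held at least 3 GATC, a sequence that reads the same on both strands, in their first 80 bases.

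Topors was listed at 4.31 and 4.65 TPM in shTopors, against 21.9 and 29.2 TPM in shCtrl, which goes with the labels. Of 10 hepatocyte markers, 9 were at 1 TPM or more in every library, and Fgb was below. The hepatocyte markers summed to 8218 and 6652 TPM in shTopors and 7470 and 9201 TPM in shCtrl. That sum was mostly the keratins Krt8 and Krt18 except in shCtrl 2. There Trf, at 2279 TPM, and Ttr, at 2168 TPM, each stood above Krt8 (2096 TPM) and Krt18 (1719 TPM). Single markers differed between the groups. Apoe was at 7.65 and 32.9 TPM in shTopors and 209 and 426 TPM in shCtrl. Ttr was at 195 and 410 TPM in shTopors and 1119 and 2168 TPM in shCtrl. Alb was at 4.15 and 402 TPM in shTopors and 118 and 271 TPM in shCtrl. The part of these hepatocyte marker differences in the results below was not tested. Summed markers of leukocytes, endothelium and stellate cells were at most 1.62 TPM in any library, with Adgre1, Cdh5 and Lrat at 0 throughout. Nothing in the labels ties the libraries to separate cultures. The p-values therefore cover library-to-library spread alone, and that spread may be technical. In such bulk samples a change in the mix of cells and a change in RNA per cell cannot be told apart.

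Together the 10 genes made up a large part of the measured transcript level, with no separation of the groups. Their summed share of TPM was 23.8% and 26.1% in shTopors, against 30.1% and 22.3% in shCtrl. The shTopors libraries therefore lay between the control libraries. This sum leaves out the 7SL entry AC099934.2, at 29504 TPM in shTopors 2 and 20230 TPM in shCtrl 2 but near 0 in replicate 1 of both groups. The mean share was 24.9% ± 1.68 in shTopors and 26.2% ± 5.51 in shCtrl (SD, n = 2 each), a difference of -1.29 percentage points with an exact two-sided permutation p = 1. With 2 libraries against 2 that test cannot give less than 0.333. Without shCtrl 1 the difference was 2.61 percentage points, in the opposite direction. Nuclear protein-coding genes took 67.8% and 62.4% in shTopors and 61.4% and 67.4% in shCtrl. These shares are parts of a fixed total, so each moves with the others, and TPM of an 80-base gene counts far more per read than TPM of a long one.

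**Figure D1:**
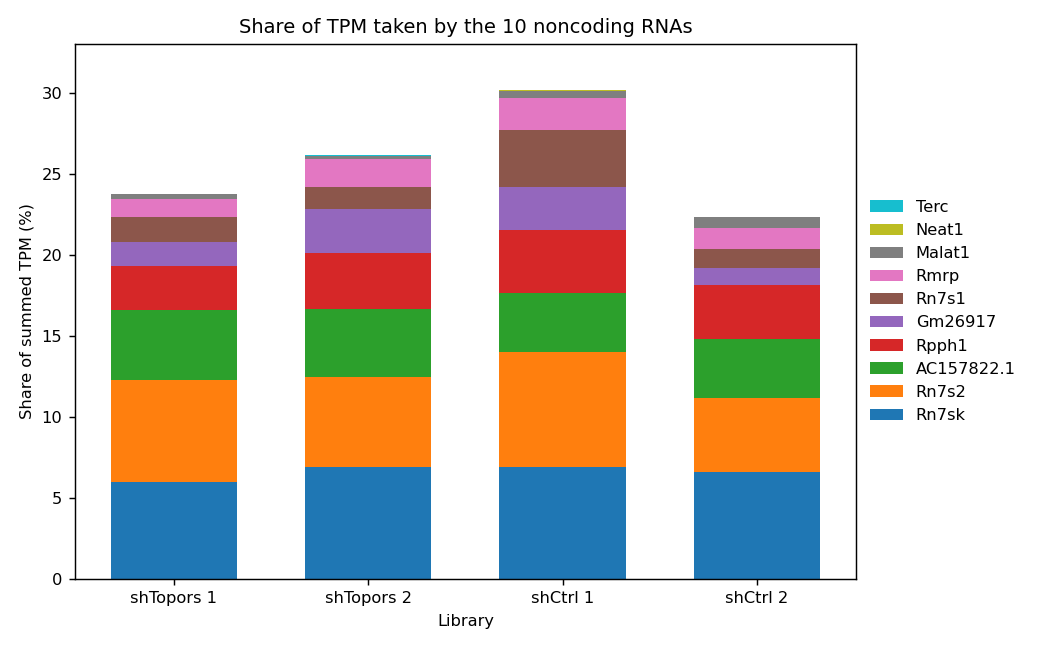
Stacked bars give the share of summed TPM (%, vertical axis) taken by each of the 10 genes in each of the 4 libraries (horizontal axis). The bar tops are 23.8% and 26.1% for shTopors and 30.1% and 22.3% for shCtrl, and Terc and Neat1 are too small to see.

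Within that sum, 7SK and the 7SL genes held most. Rn7sk took 5.95% and 6.92% in shTopors and 6.91% and 6.57% in shCtrl. The 7SL genes Rn7s1, Rn7s2 and AC157822.1 together took 12.2% and 11.1% in shTopors and 14.3% and 9.42% in shCtrl. That leaves out AC099934.2, which held 7SL signal in replicate 2 of both groups only. All entries at both 7SL genes took 12.2% and 14.0% in shTopors and 14.3% and 11.4% in shCtrl. Rpph1 and Rmrp together took 3.85% and 5.17% in shTopors and 5.84% and 4.61% in shCtrl. For each of these sums the groups overlapped. The order was alike in all libraries at the top and the bottom: Rn7sk and Rn7s2 held the first 2 places in each library, with Rn7s2 ahead in shTopors 1 and shCtrl 1 and Rn7sk ahead in shTopors 2 and shCtrl 2. Malat1 was eighth of the 10 in each library, and Terc and Neat1 were last, with Neat1 above Terc in shTopors 1 only.

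In limma's test over 13509 genes, 0 of the 10 genes passed an adjusted p of 0.05, where 5 of all tested genes did (0.037%, of which 0.0074% higher and 0.0296% lower). Topors itself did not pass (log2 difference -2.27, limma adjusted p = 0.0823), so not passing does not show that a level was unchanged. The adjusted p of the 10 genes ran from 0.172 for Malat1 to 0.929 for Rn7s2. At an unadjusted p under 0.05, 1 of the 10 was higher in shTopors (Neat1) and 1 lower (Malat1), against 3.98% and 10.7% of tested genes (14.7% in either direction). Both shTopors libraries lay above both shCtrl libraries for 2 genes, Neat1 and AC157822.1, which 14.6% of tested genes did. Both lay below for 1 gene, Malat1, which 35.2% of tested genes did. The groups of the other 7 genes overlapped, while 49.8% of tested genes did not overlap in either direction. The median log2 difference was -0.0124 over the 10 genes and -0.183 over all tested genes, and 6 of the 10 lay above the all-gene median. Median-of-ratios scaling moved the all-gene median to -0.0162 and quantile normalization to -0.00645, so the difference of each of the 10 genes is also given relative to the all-gene median.

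**Figure D2:**
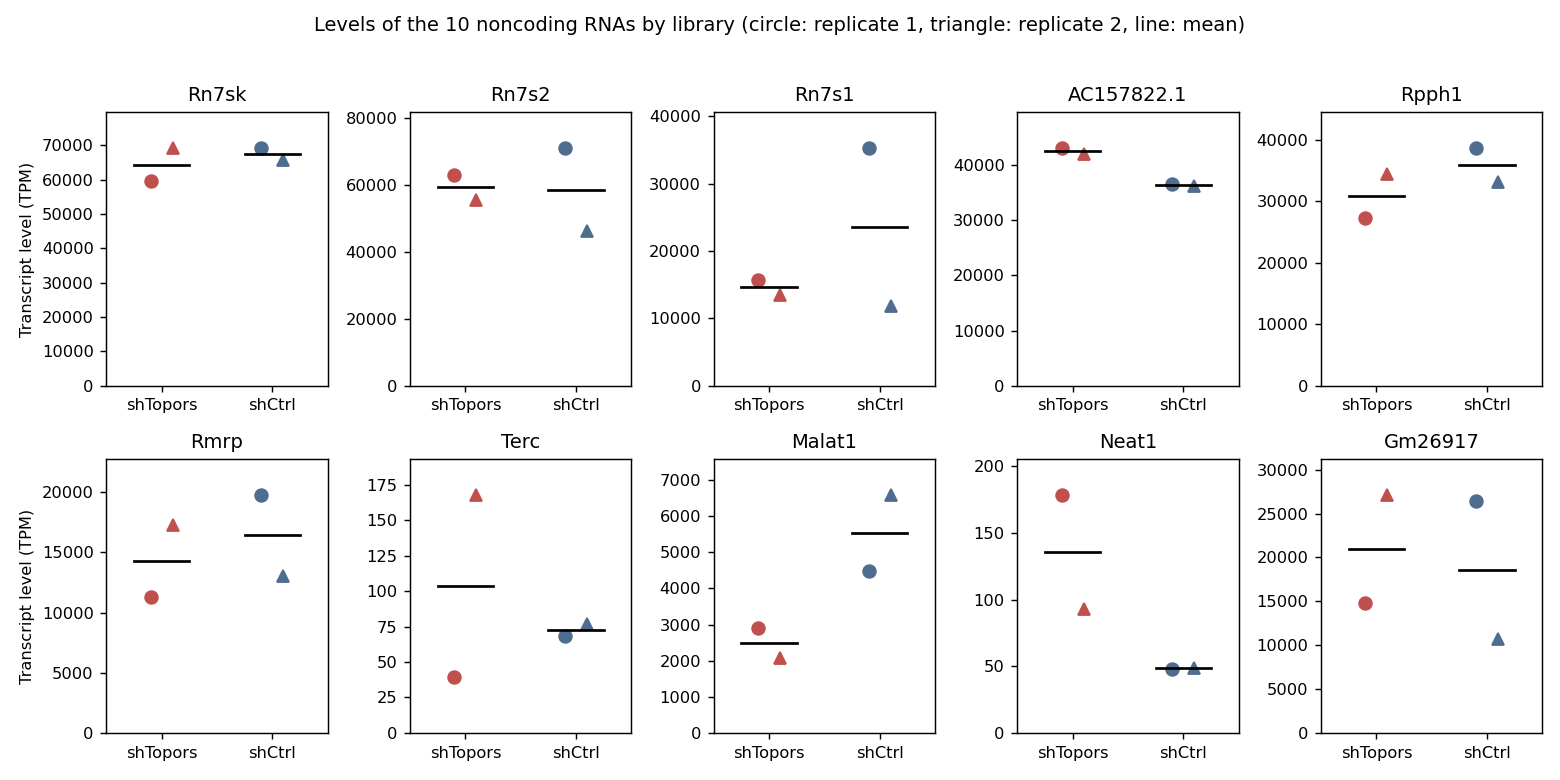
Each panel plots the transcript level in TPM (vertical axis from 0) of 1 gene in the shTopors and shCtrl libraries, with circles for replicate 1, triangles for replicate 2 and a line at the group mean. Malat1 at 2918 and 2083 TPM in shTopors lies below both shCtrl libraries, Neat1 and AC157822.1 lie above both, and the other panels overlap.

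Malat1 was lower in both shTopors libraries without passing the threshold. Its level was 2918 and 2083 TPM in shTopors, against 4475 and 6586 TPM in shCtrl. The highest shTopors library thus stood below the lowest shCtrl library. The means were 2501 ± 590 TPM in shTopors and 5530 ± 1493 TPM in shCtrl (SD, n = 2 each), which is 2.21-fold lower. The log2 difference was -1.14 (SE 0.256), or -0.95 relative to the all-gene median, and limma gave an adjusted p = 0.172. With 1 library left out, the single remaining library of its group was taken to vary as much as the other pair, so no call is drawn from such a fit. Malat1 had a log2 difference of -1.38 without shTopors 1 and -0.90 without shTopors 2. It was -1.42 without shCtrl 1 and -0.86 without shCtrl 2. Malat1 took 0.292% and 0.208% of TPM in shTopors and 0.448% and 0.659% in shCtrl.

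Neat1 differed in the opposite direction, also without passing. It was listed at 178.5 and 93.2 TPM in shTopors, against 48.2 and 48.6 TPM in shCtrl. The shCtrl libraries were 1.01-fold apart and the shTopors libraries 1.92-fold apart, so most of the spread lay within shTopors. The means were 136 ± 60.3 TPM in shTopors and 48.4 ± 0.291 TPM in shCtrl (SD, n = 2 each), a ratio of 2.8. The log2 difference was 1.40 (SE 0.336), or 1.58 relative to the all-gene median, and limma gave an adjusted p = 0.184. Without shTopors 2 the log2 difference of Neat1 was 1.86, and without shTopors 1 it was 0.93. The gene has a short and a long transcript, which a single value for the gene does not separate.

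The balance between both RNAs differed by more than either level, since they lay on opposite sides of the controls. The ratio of Malat1 to Neat1 within a library, which no scaling between libraries can alter, was 16.3 and 22.4 in shTopors, against 92.8 and 135 in shCtrl. The mean log2 ratio was 4.26 ± 0.319 in shTopors and 6.81 ± 0.386 in shCtrl (SD, n = 2 each), a difference of -2.55 or 5.86-fold lower. The exact two-sided permutation p was 0.333, the smallest that 2 libraries against 2 can give. Leaving out 1 library at a time gave differences from -2.82 to -2.28. This ratio was chosen with both levels known, so it adds nothing independent to them.

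The nearest protein-coding gene beyond Neat1 overlapped between the groups. Frmd8, whose product binds inactive rhomboid proteins, was at 54.9 and 33.7 TPM in shTopors and 41.6 and 40.8 TPM in shCtrl. It had 1 shTopors library above and 1 below the controls (limma adjusted p = 0.933). Short annotated genes also lie inside the pair. Gm37376, on the opposite strand within Malat1, was at 0.864 and 0.163 TPM in shTopors and 3.16 and 3.90 TPM in shCtrl, a log2 difference of -1.62 (SE 0.338, limma adjusted p = 0.165). It lay lower in both shTopors libraries, as Malat1 did. No source used here says how strand was counted, so its reads and those of Malat1 cannot be told apart. Gm27505, a gene of 110 bases on the Neat1 strand inside Neat1, was at 242.6 and 89.5 TPM in shTopors and 183.4 and 103.4 TPM in shCtrl and overlapped between groups. Its reads and those of Neat1 cannot be told apart either.

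**Figure D3:**
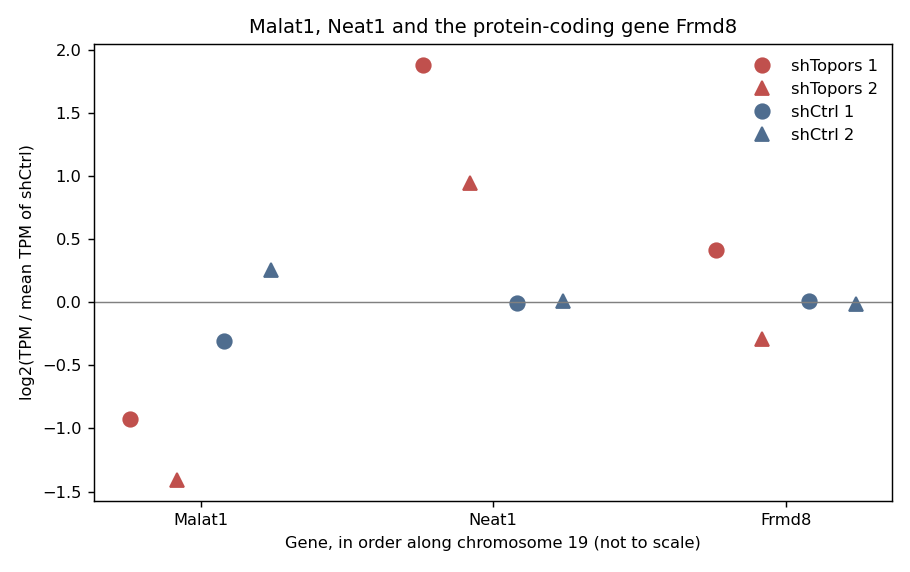
Points give log2 of the level relative to the shCtrl mean (vertical axis) for Malat1, Neat1 and Frmd8 in their order along chromosome 19 (horizontal axis, not to scale), red for shTopors and blue for shCtrl. In shTopors Malat1 lies below and Neat1 above the shCtrl points, while Frmd8 has 1 shTopors library on each side of them.

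No protein gene of either compartment passed the threshold. Of 11 tested paraspeckle proteins none passed, 0 lay above and 4 below in both shTopors libraries, against 14.6% above and 35.2% below among all tested genes. Their median log2 difference was -0.21. Nono, a core paraspeckle protein gene, was at 193 ± 22.2 TPM in shTopors and 235 ± 42.7 TPM in shCtrl (SD, n = 2 each), with groups that overlapped. Of 9 tested speckle and Malat1-binding proteins none passed, 0 lay above and 2 below, beside the same shares of 14.6% and 35.2%, and their median was -0.22. Those 2 were Sf3b1, a U2 particle subunit gene at 86.2 ± 5.12 TPM in shTopors and 132 ± 47.6 TPM in shCtrl, and Son, a speckle scaffold gene at 70.7 ± 6.24 TPM in shTopors and 85.1 ± 7.55 TPM in shCtrl.

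The full-length 7SL genes did not differ beyond their spread. Rn7s2 was at 62988 and 55403 TPM in shTopors, against 70988 and 46136 TPM in shCtrl. Rn7s1 was at 15664 and 13531 TPM in shTopors, against 35320 and 11905 TPM in shCtrl. For both, shCtrl 1 was the highest and shCtrl 2 the lowest library. On the log2 scale the difference was 0.05 (SE 0.217) for Rn7s2 and -0.49 (SE 0.444) for Rn7s1, with limma adjusted p-values of 0.929 and 0.617. Relative to the all-gene median these were 0.23 and -0.31. The Rn7s1 value rests on shCtrl 1, without which it was 0.29.

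Since Rn7s1 and Rn7s2 have the same sequence, reads from them cannot be told apart, and their split depends on how the counting assigned such reads. Rn7s1 took 19.9% and 19.6% of their joint TPM in shTopors, against 33.2% and 20.5% in shCtrl. A like share near 20% thus appeared in 3 libraries and a higher one in shCtrl 1. The ratio of Rn7s1 to Rn7s2 was 0.249 and 0.244 in shTopors and 0.498 and 0.258 in shCtrl, with an exact two-sided permutation p = 0.333 for the log2 ratio.

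AC157822.1, the 80-base entry inside Rn7s2, was higher in both shTopors libraries. It was at 43062 and 41977 TPM in shTopors, against 36470 and 36147 TPM in shCtrl. The shTopors libraries were 1.03-fold apart and the shCtrl libraries 1.01-fold, a narrower spread than that of the full-length 7SL genes. The means were 42520 ± 767 TPM in shTopors and 36309 ± 229 TPM in shCtrl (SD, n = 2 each), a ratio of 1.17. The log2 difference was 0.23 (SE 0.137), or 0.41 relative to the all-gene median, and limma gave an adjusted p = 0.465. Since 77 of its 80 bases lie in Rn7s2, its reads and those of 7SL cannot be told apart.

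Among the short entries of Rn7s1, AC099934.2 divided the libraries by replicate number. It was at 0.152 and 29504 TPM in shTopors, against 0.154 and 20230 TPM in shCtrl. Replicate 2 of both groups thus ranked it among the highest genes and replicate 1 of both groups near 0. Its log2 difference was 0.27 (SE 5.38, limma adjusted p = 0.985). The entries at the matching places stayed near 0 in each library, although they cover the same bases of 7SL in the other gene. AC157822.2 in Rn7s2, the match of AC099934.2, was at 0.159 and 0.195 TPM in shTopors and 0.162 and 0.170 TPM in shCtrl. AC099934.1 in Rn7s1, the match of AC157822.1, was at 0.157 and 0.181 TPM in shTopors and 0.122 and 0.128 TPM in shCtrl.

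To sum the entries on 1 scale, TPM was multiplied by length in kilobases, a choice made after seeing the data. This 7SL weight was 27041 and 26104 TPM × kb in shTopors, against 34810 and 21720 TPM × kb in shCtrl. The shTopors libraries lay between the shCtrl libraries. The means were 26572 ± 663 in shTopors and 28265 ± 9256 in shCtrl (SD, n = 2 each), with an exact two-sided permutation p = 1. Thus AC157822.1 did not overlap between groups while the sum over all entries of both loci did. The short entries held 12.7% and 20.8% of the weight in shTopors and 8.38% and 19.8% in shCtrl, the higher share being in replicate 2 of both groups.

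**Figure D4:**
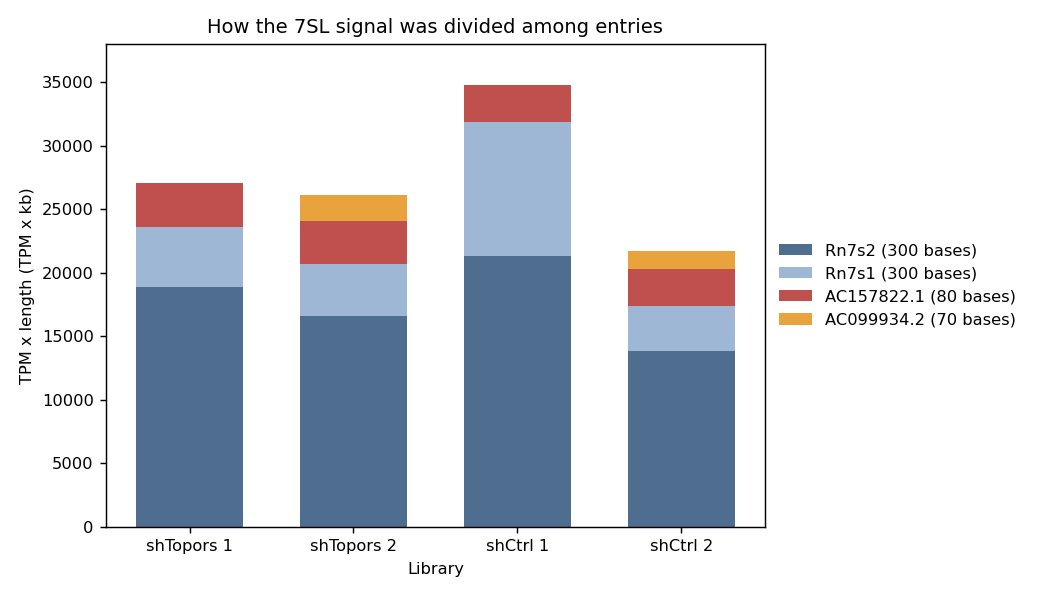
Stacked bars give TPM × length (TPM × kb, vertical axis from 0) of Rn7s2, Rn7s1, AC157822.1 and AC099934.2 in each of the 4 libraries. The totals of 27041 and 26104 in shTopors lie between 34810 and 21720 in shCtrl, and AC099934.2 is visible in replicate 2 of both groups only.

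Proteins of the signal recognition particle and its receptor did not pass either. Of 10 tested, 0 lay above and 1 below in both shTopors libraries (all tested genes 14.6% and 35.2%), with a median log2 difference of -0.05 and a smallest limma adjusted p = 0.614. Srp14, which with Srp9 binds the Alu end of 7SL, was at 117 ± 55.9 TPM in shTopors and 86.9 ± 10.6 TPM in shCtrl (SD, n = 2 each). The ribosomal protein gene Rps29 starts 109 bases from Rn7s1 on the opposite strand. It was at 1136 and 997.5 TPM in shTopors, against 793 and 744.6 TPM in shCtrl, above both control libraries without passing (limma adjusted p = 0.330).

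7SK did not differ between the groups beyond its spread. Rn7sk (331 bases, chr9:78175303-78175633, minus strand) was at 59455 and 69206 TPM in shTopors, against 69047 and 65716 TPM in shCtrl. The control libraries lay within the range of the shTopors libraries. The means were 64331 ± 6895 TPM in shTopors and 67382 ± 2355 TPM in shCtrl (SD, n = 2 each). The log2 difference was -0.07 (SE 0.144, limma adjusted p = 0.832), or 0.11 relative to the all-gene median. It was 0.12 once median-of-ratios scaling was applied, so its sign is not determined. In the annotation 35 other genes had at least 80% identity to 7SK over at least 150 bases. Their summed TPM was 0.901% to 0.975% of that of Rn7sk, mostly from Gm24447.

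Of the 7 proteins of the 7SK particle and P-TEFb, none passed, and 4 lay lower and 0 higher in both shTopors libraries, against 35.2% lower and 14.6% higher among all tested genes. Their median log2 difference was -0.33, and 1 of the 7 lay above the all-gene median. The HEXIM genes encode the inhibitors that 7SK brings to the kinase. Hexim1 was at 31.5 ± 4.58 TPM in shTopors and 42.6 ± 3.98 TPM in shCtrl, and Hexim2 at 4.21 ± 0.340 TPM in shTopors and 7.01 ± 0.694 TPM in shCtrl (SD, n = 2 each). The cyclin gene Ccnt2 was at 24.7 ± 3.51 TPM in shTopors and 35.6 ± 6.23 TPM in shCtrl. The kinase gene Cdk9 was at 41.1 ± 11.9 TPM in shTopors and 42.9 ± 2.96 TPM in shCtrl and overlapped. The limma adjusted p of these genes was 0.369 or more.

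The RNA subunits of RNase P and RNase MRP overlapped between the groups. Rpph1 (319 bases, chr14:50807449-50807767, minus strand) was at 27216 and 34471 TPM in shTopors, against 38640 and 33031 TPM in shCtrl. Rmrp (271 bases, chr4:43492788-43493058, minus strand) was at 11311 and 17254 TPM in shTopors, against 19761 and 13047 TPM in shCtrl. Both were lowest in shTopors 1 and highest in shCtrl 1. For Rpph1 the log2 difference was -0.22 (SE 0.176) and for Rmrp -0.20 (SE 0.270), with limma adjusted p-values of 0.565 and 0.733. Relative to the all-gene median these were -0.04 and -0.02. Without shTopors 2 the log2 difference was -0.39 for Rpph1 and -0.51 for Rmrp. Without shTopors 1 it was -0.05 for Rpph1 and 0.10 for Rmrp.

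The ratio of Rmrp to Rpph1 was 0.416 and 0.501 in shTopors, against 0.511 and 0.395 in shCtrl. The log2 ratios differed by 0.02 with an exact two-sided permutation p = 1. Similar genes were few: 4 other genes had at least 80% identity to Rpph1 over at least 150 bases, and 0 had it to Rmrp. The genes similar to Rpph1 summed to 114 and 612.3 TPM in shTopors and 147.3 and 138.4 TPM in shCtrl. Nearly all of this came from Rprl3, with shTopors 2 the highest. Rpph1 starts 74 bases from Parp2 on the opposite strand, and Parp2, a DNA damage response gene, was at 15.5 and 20.3 TPM in shTopors and 13.5 and 18.5 TPM in shCtrl. The protein-coding gene Ccnb1ip1, which overlaps Rpph1 on its strand, was listed at 0 in every library. Ccdc107 overlaps Rmrp on the opposite strand and was at 54.0 and 62.4 TPM in shTopors and 58.5 and 46.3 TPM in shCtrl.

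The proteins of both enzymes are largely shared, and 0 of the 11 tested passed. In both shTopors libraries 1 lay above and 2 lay below (all tested genes 14.6% and 35.2%), with a median log2 difference of 0.05, and 9 of the 11 lay above the all-gene median. The subunit gene Rpp14 was at 78.7 ± 1.23 TPM in shTopors and 52.5 ± 10.8 TPM in shCtrl (SD, n = 2 each), with a log2 difference of 0.59 (limma adjusted p = 0.352). Another subunit gene, Rpp25, was at 1.08 ± 0.510 TPM in shTopors and 3.40 ± 0.903 TPM in shCtrl, with a log2 difference of -1.09 (limma adjusted p = 0.233).

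Terc, the telomerase RNA (annotated at 423 bases, chr3:96414437-96414859, minus strand), was set apart by its spread within shTopors. It was listed at 39.4 and 167.7 TPM in shTopors, against 68.3 and 76.9 TPM in shCtrl. The shTopors libraries were 4.25-fold apart, the widest of the 10 genes in either group, and lay on opposite sides of the controls, which were 1.13-fold apart. Its log2 difference was 0.17 (SE 0.593, limma adjusted p = 0.903), or 0.35 relative to the all-gene median. Without shTopors 1 it was 1.20 and without shTopors 2 it was -0.86, so the direction depends on which library is kept.

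Genes for telomerase and H/ACA proteins, which include those that bind Terc, were above the all-gene median in 8 of 9 cases, with 6 higher and 0 lower in both shTopors libraries. Among all tested genes 14.6% lay higher and 35.2% lower in this way. None passed over all genes, and the median log2 difference was 0.44. Dkc1, the gene of dyskerin, the H/ACA pseudouridine synthase, was at 33.3 and 34.5 TPM in shTopors, against 18.2 and 22.6 TPM in shCtrl. Nhp2 and Nop10 encode small core proteins of the same particles. Nhp2 was at 156 ± 28.6 TPM in shTopors and 99.4 ± 2.84 TPM in shCtrl, and Nop10 was at 156 ± 34.1 TPM in shTopors and 110 ± 10.3 TPM in shCtrl (SD, n = 2 each). The log2 difference was 0.71 for Dkc1, 0.63 for Nhp2 and 0.48 for Nop10, with limma adjusted p-values of 0.294, 0.306 and 0.422. Tert, the catalytic subunit gene, was at 2.39 and 0.591 TPM in shTopors and 1.03 and 1.34 TPM in shCtrl, with shTopors libraries on both sides of the controls. Gar1, the gene of this list not above the all-gene median, was at 5.31 and 13.1 TPM in shTopors and 12.6 and 9.61 TPM in shCtrl. Its groups overlapped. Tert and Gar1 are named outside the rule, after their values were seen.

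Gm26917, annotated as a long intergenic RNA of 3329 bases at chr17:39843013-39846341 on the plus strand, ends 12 bases before the RefSeq ribosomal RNA pseudogene Rn18s-rs5. Whether reads listed under Gm26917 come from ribosomal RNA was not tested. Gm26917 was at 14775 and 27115 TPM in shTopors, against 26485 and 10698 TPM in shCtrl. Each group had 1 high and 1 low library, 1.84-fold apart in shTopors and 2.48-fold apart in shCtrl. Its log2 difference was 0.25 (SE 0.441, limma adjusted p = 0.803), or 0.43 relative to the all-gene median. Without shTopors 1 it was 0.69, and without shTopors 2 it was -0.19. Gm42418, an annotated gene that overlaps this pseudogene in part, was at 1236 and 1746 TPM in shTopors and 2115 and 1360 TPM in shCtrl, with the high and low libraries the same as for Gm26917 in both groups.

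No ribosomal RNA or ribosomal RNA-like gene passed either. Of 5 tested, with Gm42418 counted and Gm26917 not, 1 lay above and 3 below in both shTopors libraries (all tested genes 14.6% and 35.2%). Their median log2 difference was -1.20. The mitochondrial ribosomal RNA mt-Rnr2 was at 1048 ± 186 TPM in shTopors and 2756 ± 1947 TPM in shCtrl (SD, n = 2 each), and mt-Rnr1 at 73.6 ± 2.95 TPM in shTopors and 310 ± 300 TPM in shCtrl. In both, shCtrl 1 was far above the other libraries. Gm15564 was listed at 0 in both shTopors libraries and at 2.75 and 3.56 TPM in shCtrl, with the smallest adjusted p of the list in limma's test (0.0918).

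**Figure D5:**
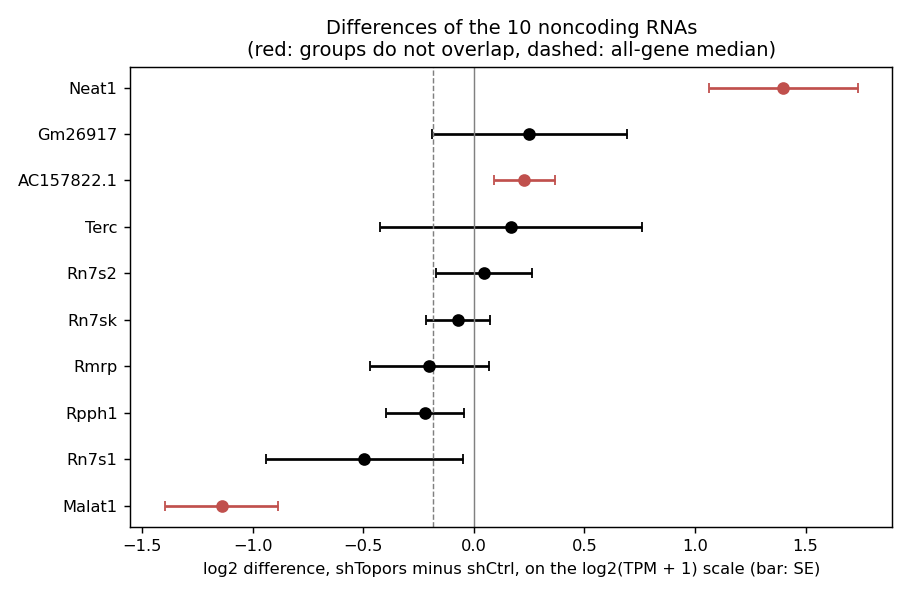
Points give the log2 difference, shTopors minus shCtrl, on the log2(TPM + 1) scale (horizontal axis) of each of the 10 genes (vertical axis) with bars of 1 SE, red where the groups do not overlap and a dashed line at the all-gene median of -0.18. Neat1 at 1.40 and Malat1 at -1.14 lie at the ends, and Terc has the widest bar.

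RNA polymerase III makes 7SK, 7SL, Rpph1 and Rmrp. Of 22 tested genes for its subunits, promoter factors and the La protein gene Ssb, 0 passed, 2 lay higher and 8 lower in both shTopors libraries, against 14.6% and 35.2% of all tested genes. The median log2 difference was -0.15. Snapc2, a subunit gene of the factor that binds 7SK-type promoters, was at 13.6 ± 1.51 TPM in shTopors and 19.9 ± 0.112 TPM in shCtrl (SD, n = 2 each). Tbp, the TATA-binding protein gene, was at 9.27 ± 1.63 TPM in shTopors and 13.6 ± 1.49 TPM in shCtrl. Their limma adjusted p-values were 0.407 and 0.441.

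Other noncoding RNAs of similar kinds gave the surroundings of these values. Of 12 tested small structural RNAs, 0 passed, 1 lay higher and 0 lower in both shTopors libraries (all tested genes 14.6% and 35.2%), with a median log2 difference of 0.24. Scarna2, a guide RNA of Cajal bodies, was at 2514 ± 823 TPM in shTopors and 1966 ± 398 TPM in shCtrl (SD, n = 2 each). Of 11 long noncoding RNAs tested from a list, 0 passed, 1 lay higher and 6 lower, beside the same shares of all tested genes. Their median log2 difference was -0.37. Airn, the antisense RNA of the imprinted Igf2r locus, was at 11.9 ± 0.138 TPM in shTopors and 28.3 ± 4.15 TPM in shCtrl, with a log2 difference of -1.18 (limma adjusted p = 0.174), close in size to that of Malat1. Firre, which acts in nuclear organization, was at 33.2 ± 1.33 TPM in shTopors and 53.1 ± 3.41 TPM in shCtrl, with a log2 difference of -0.66 (limma adjusted p = 0.295).

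The noncoding genes next below the 7 most abundant lay within host genes in most cases. AC099934.2, inside Rn7s1, held rank 8 and is given above. Gm26377, inside the elongation factor gene Eef1a1, was at 12755 and 10169 TPM in shTopors, against 8979 and 11724 TPM in shCtrl. Gm22133, inside the ferritin light chain gene Ftl1, was at 5819 and 4633 TPM in shTopors, against 4936 and 3778 TPM in shCtrl. Malat1, with a mean of 4016 TPM, stood eleventh among noncoding genes, and Gm27597, inside the ribosomal protein gene Rpl19, was at 4301 and 3611 TPM in shTopors, against 3302 and 2790 TPM in shCtrl. Reads of these short genes and their hosts overlap on the same strand and cannot be told apart.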

How the data were processed

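RNA of AML12 cells was measured in 2 shTopors and 2 shCtrl libraries. The authors deposited TPM per gene. Per the submitters' processing notes, the build was mm10 and the tools were StringTie, HTSeq, HISAT2 and DESeq2, with no role or version. Which program wrote the TPM, and with what strand setting, the sources used here do not say. TPM keeps no depth, so no counting interval was computed. TPM summed to between 999914 and 999943 per library, and 12928 to 13847 genes had at least 1 TPM. Of 52633 rows, 3 repeated an identifier and were summed. Of 27 symbols turned into dates, 26 were restored. Of 52630 identifiers, 52483 were in GENCODE M21, which gave coordinates, lengths and sequences, and RefSeq gave Rn18s-rs5.

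The test was limma 3.58.1 (R 4.3.3) with its mean-variance trend on log2(TPM + 1), for the 13509 genes averaging 1 TPM or more, as shTopors minus shCtrl. This scale understates differences of low genes. The p-values were adjusted by Benjamini-Hochberg over all tested genes, with a threshold of 0.05. All 10 genes were tested. Summed shares and ratios had exact permutation tests over libraries. Copies were sought with BLAST+ 2.17.0. The limma step was tested on simulated data whose spread was taken from the shCtrl libraries alone. The genes, lists and tests were chosen with earlier results of these data known. Named genes are the 10 genes, Topors, in each list the tested gene of highest mean and up to 3 of smallest p, overlapping or neighbouring genes, and the next 5 noncoding genes, and not all are printed. Some results under this rule are not reported here. Alternatives were other pseudocounts, filters, scalings, variance models, a term for the replicate number, and leaving out each library.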

Additional observations from a re-analysis of the deposited data

How the results depend on the processing

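With 2 libraries per group, 1 library decides most calls. Genes past the threshold in limma's test, 1 higher and 4 lower with all libraries, numbered 0 and 0 with no filter on low values. They numbered 0 and 1 when genes under a mean of 5 TPM were dropped, with median-of-ratios scaling, with quantile normalization, when rescaled without the 10 genes and when rescaled over nuclear protein-coding genes. With 1 library left out they ranged from 0 to 687 higher and from 0 to 1479 lower. The replicate block gave 6 and 27, with 0 of the 10 genes among them. The labels do not say what the numbers share, and same-numbered libraries deviated together with a correlation of 0.199. In some fits with 1 library left out many of all tested genes passed. No call of the 10 genes or of the lists is therefore drawn from such fits.

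Over the 11 other alternatives Malat1 ran from -1.20 to -0.95 and Neat1 from 1.33 to 1.58, with adjusted p-values of 0.145 to 0.440 and 0.125 to 0.396 in limma's test. With 1 library left out, the log2 difference ran from -1.42 to -0.86 for Malat1, 0.93 to 1.86 for Neat1, 0.21 to 0.25 for AC157822.1 and -0.39 to -0.05 for Rpph1, which kept their direction. It ran from -0.18 to 0.039 for Rn7sk, -1.28 to 0.29 for Rn7s1, -0.26 to 0.36 for Rn7s2, -0.51 to 0.10 for Rmrp, -0.86 to 1.20 for Terc and -0.40 to 0.90 for Gm26917, which did not. Rn7sk was at 0.12 after median-of-ratios scaling. The summed share differed by -5.19 to 2.61 percentage points and the log2 ratio of Rmrp to Rpph1 by -0.17 to 0.21. The 7SL weight differed by -0.09 on the log2 scale, by 0.027 when TPM was summed without length, and by -0.39 to 0.29 with 1 library left out. The cause of these changes was not tested. TPM alone gives no depth, so whether a low value such as that of Terc is limited by read number is unknown.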
